A study of Mus musculus with 5 samples.

Results

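Krüppel-like factors (Klf) are DNA-binding proteins that recognise GC-rich and CACCC sequences in promoters through zinc fingers at their carboxy terminus. The 10 family members described here, Klf2, Klf3, Klf4, Klf5, Klf6, Klf7, Klf9, Klf10, Klf13 and Klf15, were taken by name from tables that list 20365 gene names. Each gene is represented by its interval with most reads, taken by the mean CPM of the labeled libraries. All 10 were found, and 9 of them had enough reads for a test of read counts. The exception was Klf5, with 2 to 10 reads per library.

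The libraries came from cardiac fibroblasts (CF) of healthy adult male C57Bl/6J wildtype mice, aged 10 to 12 weeks, obtained by collagenase perfusion of the heart, magnetically depleted of CD31+ and CD45+ cells and grown to confluency. In 3 libraries, CF had been kept for 12 h with 0.1 mM of the uridine analog S4U, and 2 unlabeled control libraries came from CF incubated in parallel without it. All 5 RNA samples were alkylated with iodoacetamide, after which incorporated S4U is read as C instead of T (SLAMseq). The authors give n = 3 CF preparations for SLAMseq, but the labels do not say whether libraries with the same replicate number shared a preparation. The p-values below therefore measure the spread between these libraries, which may be partly technical.

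The family falls into branches by the cofactors that its members bind. Klf2, Klf4, Klf5, Klf6 and Klf7 carry activating domains, Klf3 represses through CtBP corepressors, and Klf9, Klf10 and Klf13 recruit Sin3 corepressor complexes. Klf15 stands outside these branches and is known in the heart as a brake on hypertrophy and fibrosis. Many Klf genes respond quickly to growth factors, shear stress or hormones, and sequences in the 3′ UTR are known to set the lifetime of mRNAs of this kind.

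Reads counted on 1 interval per gene ranged from 506045 in labeled replicate 3 to 1842863 in unlabeled replicate 1, so labeled replicate 3 had the least precise values. Levels are given in CPM relative to these counted reads, without division by length. The libraries were primed at the poly(A) tail, where a transcript is meant to give about the same number of reads whatever its length. Some Klf7 reads lay far from that end, as given below. The T>C conversion rate is the number of T>C conversions divided by the number of covered T positions. Over all intervals it was 0.0353, 0.0358 and 0.0356 in labeled replicates 1 to 3, and 0.00111 and 0.000652 in unlabeled replicates 1 and 2. Summed fibroblast markers were between 31055 and 41977 CPM in every library, with Col1a1 alone at 8785 to 13293, so the labelled cell type was borne out. Summed endothelial markers were at 145 to 263, macrophage markers at 59.0 to 111, mural markers at 23.5 to 85.3, cardiomyocyte markers at 2.17 to 8.03 and epicardial markers at 1.00 to 5.93 CPM. The endothelial marker Vwf had 1 read in all, the mural marker Myh11 had 1 read in all, and the epicardial marker Msln had none. In such bulk samples, fewer cells of a type and less RNA per cell cannot be told apart.

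The intervals lay in the annotated 3′ UTRs in the last exon of each gene, in genome build GRCm39, except that those of Klf10 and Klf4 ran a few bases past the UTR end, with 99.5% and 99.8% inside. They were chr8:73074764-73075498 on the plus strand for Klf2, chr5:64986502-64990244 on the plus strand for Klf3, chr4:55527137-55528124 on the minus strand for Klf4 and chr14:99550766-99550848 on the plus strand for Klf5. Those of Klf6 and Klf7 were chr13:5917283-5920392 on the plus strand and chr1:64068607-64074871 on the minus strand. For the Sin3-binding members they were chr19:23142277-23145493 on the plus strand for Klf9, chr15:38294650-38296148 on the minus strand for Klf10 and chr7:63536099-63541255 on the minus strand for Klf13. The Klf15 interval was chr6:90450610-90452217 on the plus strand, and 14.4% of it is coding sequence in some transcript, as is 4.35% of the Klf2 interval. The UTR of the canonical Klf15 transcript is only 953 bases long and starts at 90451268, against 1608 bases for the interval. The Klf5 interval held only 83 bases with 15 T positions and ended 1625 bases before the end of the annotated UTR, which is 1711 bases long. The Klf9 interval likewise ended 3004 bases before the end of its 6224-base UTR, so reads from the distal ends of these UTRs were not counted. The interval of Klf2 overlaps Eps15l1, a gene on the opposite strand.

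Elements that govern mRNA decay are printed because the T>C rate after a fixed pulse can reflect how fast a transcript pool is renewed. Whether rates after a single time of 12 h separate the renewal of these transcripts was not tested. The letters searched, on the transcript strand only, were ATTTA, the core of AU-rich elements, TATTTAT, its longer form that contains ATTTA and is bound by tristetraprolin, and TGTANATA, the Pumilio element, where N is any base. The heptamer TATTTAT was found in 4 of the 10 intervals and is in capitals in the following stretches, written 5′ to 3′ from GRCm39.
Klf2, chr8:73074834-73074858: acagactgcTATTTATtggacctta
Klf6, chr13:5918491-5918515: tacgtctctTATTTATgccttgagg
Klf6, chr13:5918944-5918968: caccggctgTATTTATtatgtaaca
Klf7, chr1:64068945-64068969: cttctctggTATTTATaatatatca
Klf10, chr15:38295166-38295190: gtgtcttttTATTTATaggagtttt
The Klf2 and Klf6 stretches are on the plus strand and those of Klf7 and Klf10 on the minus strand. Among all intervals within 20% of the same length, 18.2% held this heptamer for Klf2, 52.7% for Klf6, 69.8% for Klf7 and 32.8% for Klf10. A match to these letters is a description of the sequence and not evidence of binding.

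The Pumilio element was found most often in Klf9 and Klf15, each with 3 matches, shown with the element in capitals, all on the plus strand.
Klf9, chr19:23142617-23142641: actggtggTGTACATAcgtctgact
Klf9, chr19:23145432-23145456: aggtatttTGTACATAtgtatatat
Klf9, chr19:23145440-23145464: tgtacataTGTATATAtgttgtcca
Klf15, chr6:90452018-90452042: tgaatgtaTGTAAATAaactgtaca
Klf15, chr6:90452029-90452053: aaataaacTGTACATAggtacgcat
Klf15, chr6:90452120-90452144: aaagttggTGTACATAtgttacaat
The second and the third Klf9 stretch overlap, as their elements lie side by side, and the first 2 Klf15 stretches overlap as well. Of the intervals of like length, 47.1% held the element at all for Klf9 and 94.6% held fewer than 3 copies. For Klf15 these shares were 28.4% and 98.7%. Per kilobase, Klf15 had 1.87, the short Klf2 interval 1.36 and Klf9 0.933 matches. The Klf15 values are for its interval of 1608 bases. A shorter Klf15 interval of 947 bases had the same reads and holds all 3 elements, so they are denser there. Klf2, Klf3, Klf6 and Klf13 had 1 match each, and Klf4, Klf5, Klf7 and Klf10 had none. The short core ATTTA was most frequent in Klf7, with 18 copies or 2.87 per kilobase, more than in 82.1% of like intervals. Klf13 was at the other end among the long intervals, with 3 copies or 0.582 per kilobase, and only 6.44% of like intervals had fewer.

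Klf6, Klf9 and Klf7 made up most of the family's reads. Together they gave 68.6 to 75.4% of all reads of the 10 genes in each of the 5 libraries. In labeled libraries, Klf6 stood at 502 ± 112 CPM (mean ± SD, n = 3), Klf9 at 496 ± 83.1 and Klf7 at 286 ± 8.31. Their mean levels were above those of 98.6%, 98.5% and 97.0% of all genes. Klf3 followed at 168 ± 48.9, Klf4 at 121 ± 26.9 and Klf13 at 101 ± 22.9. Klf2 at 39.3 ± 24.0 lay near the median of the genes tested for reads, which was 38.6, and Klf10 at 27.1 ± 10.7 and Klf15 at 26.8 ± 8.69 lay below it. Among all genes in the tables, which include many with hardly any reads, these 3 were above 76.2%, 70.0% and 69.8%. Klf5 was lowest at 5.59 ± 2.42, counted on an interval that leaves out the distal end of its UTR. On the deposited CPM scale, whose divisor holds more reads than those counted, Klf9 had a mean of 43.7 ± 31.6, Klf6 of 42.2 ± 29.6, Klf7 of 24.2 ± 14.6, Klf3 of 15.7 ± 12.4, Klf4 of 10.9 ± 8.36 and Klf13 of 9.10 ± 7.04. Klf10 at 2.55 ± 2.34, Klf2 at 2.54 ± 1.19, Klf15 at 2.48 ± 2.13 and Klf5 at 0.477 ± 0.301 followed there, and the wider spread goes with the share of counted reads, which differed between libraries. Without labeled replicate 1, the deposited means fell to 26.6 for Klf9, 25.5 for Klf6, 9.11 for Klf3, 6.28 for Klf4, 5.23 for Klf13, 1.30 for Klf15 and 1.23 for Klf10, each by more than 1.5 times.

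**Figure D1:**
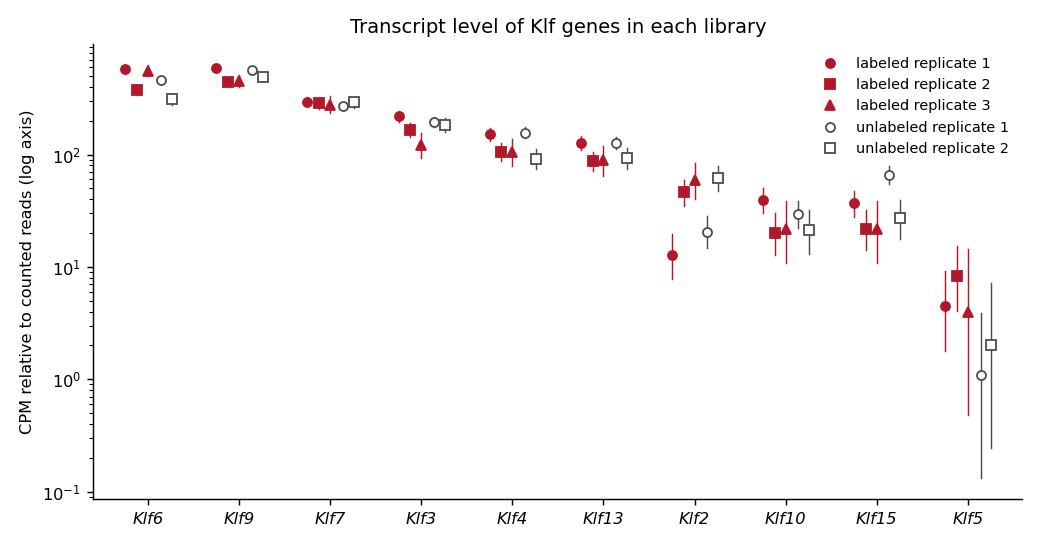
Level of each Klf gene in CPM relative to counted reads on a log axis, 1 point per library, with exact 95% Poisson intervals of the read count as vertical lines. Klf6 and Klf9 lie at the top near 500 CPM, with overlapping points, and Klf5 at the bottom between 1.09 and 8.37.

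The order of levels was stable except in 3 places. Klf6 and Klf9 did not differ beyond their spread, as Klf6 was higher in 1 of 3 labeled libraries. The same held for Klf2 and Klf10, and for Klf10 and Klf15, whose mean levels differed by 0.288 ± 2.12 CPM. Every other neighbouring pair kept its order in 3 of 3 labeled libraries with a mean difference above its SD. These comparisons are descriptions, since all members were read from the same libraries.

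Newly made RNA was detected for nearly every member. The beta-binomial test called a higher T>C rate in labeled than in unlabeled libraries for 9 of 10 members, with adjusted p between 1.05e-05 for Klf6 and 5.63e-05 for Klf10. The same call was made for 94.5% of the 19240 intervals tested, so the members' count is near the background. With limma on the log odds it was again 9 members, against 94.8% of intervals. The member without a call was Klf5, with an adjusted p of 0.228 and 5 conversions in the labeled libraries together. In 10 of 10 members, every labeled rate was above both unlabeled rates, as in 90.4% of genes.

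Within the family the rates were close to each other. The mean rates of the members ran from 0.0330 for Klf6 to 0.0429 for Klf10, around a member median of 0.0377. Well covered intervals, meaning those where no library had fewer than 1000 covered T positions, numbered 3156 and had a median of 0.0390 with quartiles at 0.0349 and 0.0424. Of the members, 6 lay below that median, and Klf6, Klf15 and Klf9 lay below the lower quartile. Only Klf3, Klf6, Klf7 and Klf9 have 1000 or more covered T positions in each library themselves, so the places of the other members are less certain.

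**Figure D2:**
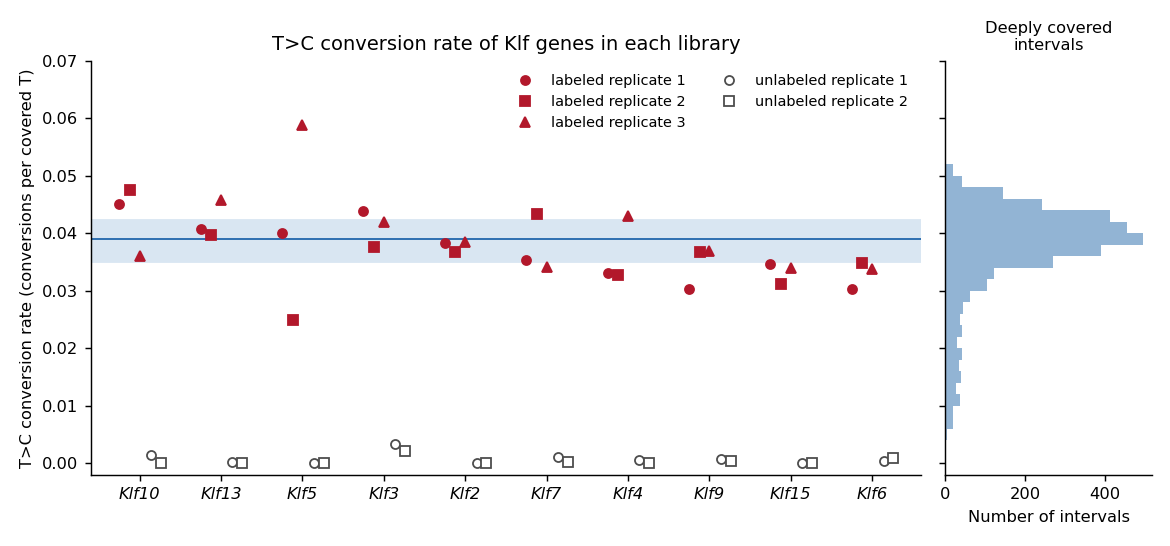
T>C conversion rate of each Klf gene in conversions per covered T, 1 point per library, with a line at the median and a band between the quartiles of the well covered intervals, whose labeled mean rates form the histogram on the right. Labeled points lie far above unlabeled ones, and those of Klf5 are spread most, from 0.0250 to 0.0588.

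Among the activating members, Klf6, an early factor of tissue injury that is known to raise TGF-β receptor expression, had the lowest mean rate of the family. It was 0.0303, 0.0349 and 0.0338 in labeled replicates 1 to 3 and 0.000339 and 0.000837 in the unlabeled ones. Its labeled mean of 0.0330 ± 0.00243 was above that of only 19.2% of well covered intervals. Klf7, a factor known from neuronal development and adipocytes, had rates of 0.0353, 0.0433 and 0.0341 with labeling, against 0.00102 and 0.000177 without. Labeled replicate 2 was the highest for Klf7, and the mean of 0.0376 ± 0.00499 stood near the family median.

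Klf4, one of the factors used to reprogram fibroblasts to pluripotency, had rates of 0.0331, 0.0328 and 0.0430 in labeled libraries and of 0.000507 and 0 in unlabeled ones. Its highest rate came from labeled replicate 3, the library with the fewest reads, and the mean was 0.0363 ± 0.00582. Klf2, which keeps endothelial cells quiescent under shear stress, had rates of 0.0383, 0.0368 and 0.0385, the narrowest spread of the family with a mean of 0.0378 ± 0.000944. These rates came from 18, 57 and 33 conversions on 470, 1551 and 858 covered T positions, so the narrow spread does not show that Klf2 was measured best. Klf2 had 0 conversions in both unlabeled libraries, which allows rates of up to 0.00284 and 0.00161 at their coverage. Klf5, which promotes proliferation of smooth muscle cells and fibroblasts, had rates of 0.0400, 0.0250 and 0.0588, but from 50, 80 and 17 covered T positions, so its mean of 0.0413 ± 0.0169 cannot be placed among the others. Its 0 conversions in the unlabeled libraries allow rates of up to 0.429 and 0.188.

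Klf3, a repressor that restrains adipocyte formation, combined a fairly high labeled rate with the highest background of the family. Labeled libraries gave 0.0439, 0.0377 and 0.0420, with a mean of 0.0412 ± 0.00317. The unlabeled libraries gave 0.00328 and 0.00220, whose mean of 0.00274 was above that of 95.6% of well covered intervals. This background came from 24 conversions on 24 of 358 reads in unlabeled replicate 1, and from 9 conversions on 9 of 184 reads in unlabeled replicate 2. With 1 conversion on each read, 6.70% and 4.89% of Klf3 reads carried a conversion without S4U. Whether these reads share a position could not be read from counts per interval. After subtraction of the mean unlabeled rate, Klf3 was at 0.0385.

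The Sin3-binding members included the highest rates of the family. Klf10, which was first described as a TGF-β inducible early gene, had rates of 0.0451, 0.0476 and 0.0361 with labeling and 0.00145 and 0 without. Its mean of 0.0429 ± 0.00605 was the highest of the family and above that of 79.6% of well covered intervals. The labeled rates of Klf10 came from 69, 25 and 10 conversions on 1530, 525 and 277 covered T positions, so its place is uncertain. Klf13, a factor of lymphocyte and heart development, had rates of 0.0407, 0.0396 and 0.0458, with a mean of 0.0420 ± 0.00329, against 0.000194 and 0 without S4U. Klf9, a target of glucocorticoid and thyroid hormone receptors, was lower at 0.0304, 0.0367 and 0.0369, with a mean of 0.0347 ± 0.00369, against 0.000785 and 0.000448. Thus the well expressed Klf9 was below the lower quartile, and Klf13 of the same branch was at the 72.5th percentile.

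Klf15, a glucocorticoid target that represses fibrotic genes in the heart, had rates of 0.0346, 0.0311 and 0.0340, with a mean of 0.0333 ± 0.00189. These labeled rates came from 46, 20 and 8 conversions on 1328, 643 and 235 covered T positions, so the place of Klf15 is uncertain as well. Klf15 had 0 conversions in both unlabeled libraries, which allows up to 0.00100 and 0.00462. Along the order of mean rates, Klf3 above Klf2 was the only neighbouring pair whose difference exceeded its SD, with 0.00336 ± 0.00232 and the same order in 3 of 3 libraries. This difference goes with the background of Klf3, since after subtraction of the mean unlabeled rates the means were 0.0385 for Klf3 and 0.0378 for Klf2, closer than that SD. Between the ends of the order, Klf10 was above Klf6 in 3 of 3 libraries, by 0.00995 ± 0.00674. In labeled replicate 3 this was 0.0361 against 0.0338, with only 10 conversions for Klf10. The genes with the heptamer TATTTAT printed above, Klf2, Klf6, Klf7 and Klf10, included both the highest and the lowest rate. Klf9 and Klf15, with 3 Pumilio elements each, were both among the 3 lowest. No test was made of either pattern.

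The share of reads with at least 1 conversion gave another view of newly made RNA. Klf2 had the highest mean share, with 65.0%, 56.4% and 56.7% of reads in labeled replicates 1 to 3, or 59.3 ± 4.90% (SD, n = 3). The exact Clopper-Pearson interval of the first of these values, from 20 reads, was 40.8 to 84.6%. Klf10 followed with 57.2 ± 4.94%, Klf15 with 55.3 ± 7.78%, Klf13 with 54.1 ± 1.44% and Klf3 with 51.9 ± 0.659%. Klf9 had 49.3 ± 10.7%, Klf7 45.9 ± 5.34%, Klf6 42.8 ± 6.29% and Klf4 38.4 ± 9.42%. Klf5 had 32.9 ± 15.5% from 2 to 10 reads. The member median of 50.6% was close to 52.7%, the median of genes with well covered intervals.

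**Figure D3:**
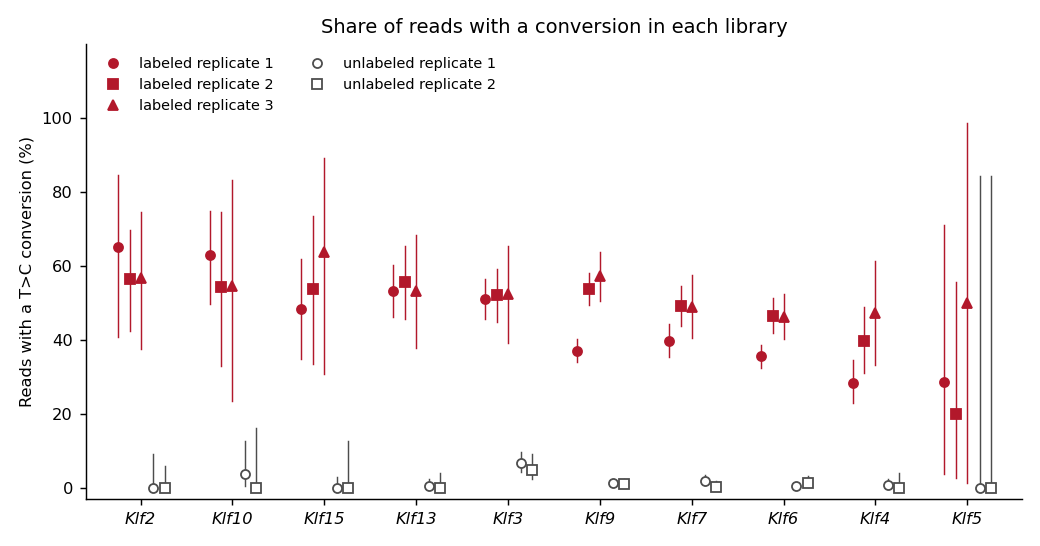
Percent of reads with at least 1 T>C conversion for each Klf gene, 1 point per library with its exact 95% Clopper-Pearson interval. The intervals of genes with few reads are wide, and the highest unlabeled points are those of Klf3, at 6.70 and 4.89%.

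Rates and shares did not rank the members alike, and the number of T positions covered by a read differed between genes. Klf2 reads covered 26.8 T positions on average in labeled libraries and Klf4 reads 14.5, so a Klf4 read had fewer positions at which a conversion could be seen. For Klf4 the share was 28.5% in labeled replicate 1 against 39.7% and 47.2% in the others, and for Klf9 it was 37.1% there against 53.7% and 57.2%. The covered T positions per read of Klf4, Klf6, Klf7 and Klf9 were all lowest in labeled replicate 1, and over all genes with well covered intervals the medians were 19.9, 22.4 and 22.7. The part of read coverage in these shares was not tested.

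A second Klf7 interval gave reads from inside the UTR, far from its end, and the Klf7 level and rates above include this stretch. It covers the first 50 bases of the same UTR, ends 6216 bases before the UTR end and holds only 2 T positions. It received 173, 101 and 21 reads in labeled replicates 1 to 3, and 168 and 83 in the unlabeled libraries, against 465, 340, 141, 500 and 291 reads for the whole UTR that contains it. Its T>C rate was 0.00940, 0.0275 and 0.0263 with labeling and 0.0134 and 0.00714 without, from 38 to 319 covered T positions. These rates are lower with labeling and higher without than those of the whole Klf7 UTR. One of the unused Klf10 intervals, chr15:38291708-38292433, had no reads in any library, and the other, chr15:38294657-38296148, lay within the interval used and gave the same counts. The Klf15 name was also given to intervals from chr6:90453671-90456668, outside its exons, where the annotation has the noncoding genes Gm66826 and Gm44421, with 0 to 10 reads per library.

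Read counts of labeled and unlabeled CF were compared to see whether 12 h with S4U changed the levels of these genes. None of the 9 members tested passed edgeR's quasi-likelihood test after Benjamini-Hochberg adjustment, and 0 of 9 had an unadjusted p below 0.05. DESeq2 called 0 members as well, at an adjusted and at an unadjusted p below 0.05, where it called 0.254% and 4.08% of the 7083 genes to which it gave an adjusted p. Over all 9807 genes tested with edgeR, 0.0% were called and 5.97% had an unadjusted p below 0.05. The labeled and unlabeled libraries overlapped for 9 of the 9 members tested, against 21.3% of all genes with groups that did not overlap, 8.2% with every labeled library higher and 13.1% with every labeled library lower. The median log2 fold change of the members was -0.02, against 0.02 over all genes.

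The confidence intervals give the range of changes compatible with the data. Klf9 with a log2 fold change of -0.02 (95% confidence interval -0.59 to 0.55) and Klf7 with 0.10 (-0.44 to 0.63) had the narrowest ones. Klf3 was at -0.09 (-0.77 to 0.58), Klf4 at 0.04 (-0.70 to 0.79), Klf13 at -0.03 (-0.71 to 0.64) and Klf10 at 0.20 (-0.76 to 1.15).

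Of the 9 members tested, Klf15 had the lowest and Klf6 the highest log2 fold change. Klf5, which was not tested, had 7, 10 and 2 reads in labeled libraries and 2 and 2 in unlabeled ones. As levels these were 4.44, 8.37 and 3.95 against 1.09 and 2.01 CPM, with every labeled level above both unlabeled ones, as in 8.2% of the genes tested. On the deposited CPM scale this did not hold, as labeled replicate 3, at 0.137, was below both unlabeled libraries, at 0.138 and 0.182. Klf15 had 58, 26 and 11 reads in labeled libraries and 122 and 27 in unlabeled ones, or 36.8, 21.8 and 21.7 against 66.2 and 27.1 CPM. Only unlabeled replicate 1 stood apart, and labeled replicate 1 was above unlabeled replicate 2. The log2 fold change was -0.70 (SE 0.44, edgeR adjusted p = 0.984), with a 95% confidence interval of -1.75 to 0.34. Without unlabeled replicate 1 it was 0.03, and without unlabeled replicate 2 it was -1.16. Klf6 had 904, 445 and 283 reads against 845 and 308, or 574, 372 and 559 against 459 and 309 CPM. Its log2 fold change was 0.47 (SE 0.30, edgeR adjusted p = 0.984), with a 95% confidence interval of -0.25 to 1.19. With the replicate number as a block, Klf15 at -0.61 and Klf6 at 0.35 had unadjusted p of 0.0137 and 0.0206 in edgeR, but adjusted p of 0.0891 and 0.117. The block called 0 members, 11.7% of all genes at the adjusted p and 23.8% at the unadjusted one.

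Klf2 varied most between libraries of the same group. It had 20, 55 and 30 reads in labeled replicates 1 to 3 and 38 and 62 in unlabeled replicates 1 and 2. As levels these were 12.7, 46.0 and 59.3 against 20.6 and 62.2 CPM. Both libraries with replicate number 1 were low, and the counting intervals of labeled replicate 1 (7.75 to 19.6) and labeled replicate 2 (34.7 to 59.9) did not overlap. The fold change between groups of -0.04 on the log2 scale thus had an SE of 0.73 and a 95% confidence interval of -1.77 to 1.70, and it became 1.00 without unlabeled replicate 2 and -0.69 without unlabeled replicate 1. In the blocked fit it was -0.49 (SE 0.27, edgeR adjusted p = 0.254), with the labeled level below the unlabeled one in both same-numbered pairs.

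Other members went the other way between the same libraries. The Klf2 level in replicate 1 was 0.276 times that in replicate 2 of the labeled libraries, 0.214 times that in labeled replicate 3, and 0.331 times between unlabeled replicates 1 and 2. Klf2 was the only member below 1 in all 3 ratios, and 7 members were above 1 in all 3. Of these, Klf15 had ratios of 1.69, 1.69 and 2.44, Klf4 of 1.44, 1.45 and 1.72, and Klf10 of 1.96, 1.81 and 1.39. The medians over all genes tested were themselves above 1, at 1.07, 1.09 and 1.08. As low as Klf2 in both the first and the last ratio were 267 of 9807 genes, or 2.72%. Klf7 hardly varied, with its highest library at 1.09 times its lowest.

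**Figure D4:**
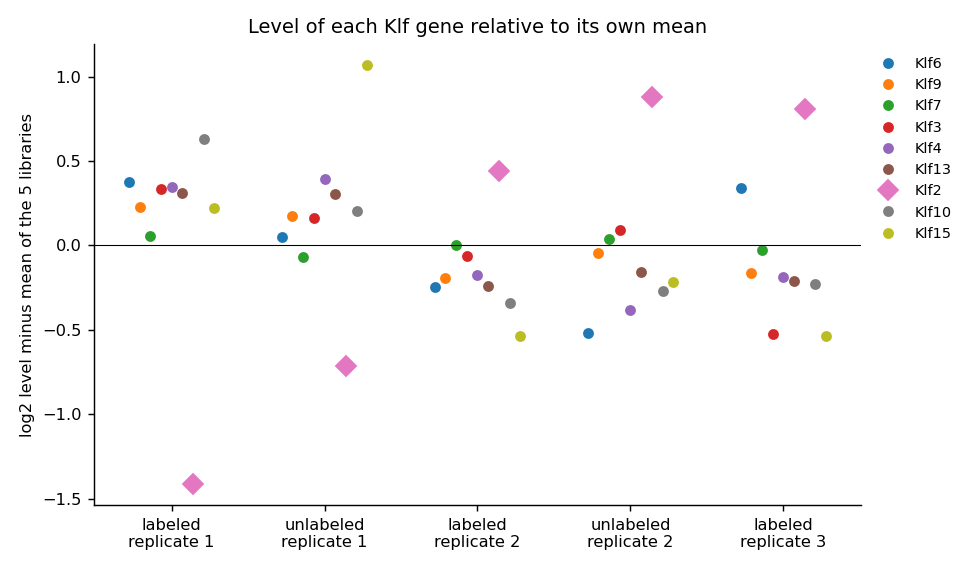
Log2 level of 9 Klf genes in each library minus the mean of the 5 libraries for that gene, with Klf5 left out for its few reads. Klf2 (diamonds) is the lowest point in both libraries with replicate number 1 and the highest in the others, opposite to most members.

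Markers of other cell types moved between the same libraries. The 8 endothelial markers, all detected in some library, summed to 145, 256 and 156 CPM in labeled replicates 1 to 3 and to 179 and 263 in unlabeled replicates 1 and 2. Pecam1, which encodes the CD31 used for depletion, had 9, 33 and 9 reads against 20 and 41, or 5.71, 27.6 and 17.8 against 10.9 and 41.2 CPM. The endothelial cadherin Cdh5 stood at 46.3, 51.0 and 31.6 against 55.9 and 52.2 CPM. In labeled replicate 3, the endothelial sum was 156 and Klf2 was at 59.3 CPM. The 6 mural markers summed to 23.5, 51.9 and 75.1 against 31.5 and 85.3. The largest single part was Notch3, at 11.4, 42.7 and 59.3 against 23.3 and 82.3 CPM, and the other 5 were each between 0 and 7.90 CPM. With the replicate block, edgeR called Notch3 lower in labeled libraries (adjusted p = 0.00599), and of the other markers the fibroblast genes Col1a1 higher (0.00605) and Pdgfra lower (0.00885). The macrophage markers summed to 59.0, 101 and 79.0 against 78.1 and 111 CPM. Of these, Lyz2 was at 2.54, 27.6 and 17.8 against 3.26 and 30.1, and Cd68 at 16.5, 17.6 and 11.9 against 20.1 and 11.0. Cardiomyocyte markers summed to 2.54, 7.53 and 5.93 against 2.17 and 8.03, and epicardial ones to 4.44, 5.02 and 5.93 against 3.80 and 1.00. The part of endothelial, mural, macrophage or other cells in the Klf2 level was not tested. Klf16, a member of the Sin3-binding branch with few reads, also had low values in replicate 1, at 1.27, 18.4 and 31.6 against 5.97 and 29.1 CPM. The GC content of the intervals was 48.3% for Klf2, 37.7% for Klf4, 51.4% for Klf13 and 51.0% for Klf15, and its part in the library differences was not tested.

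Of the rest of the Klf and Sp family, all 16 genes looked up were in the tables, but only 6 had enough reads for a test. Klf14, Klf17, Sp5 and Sp8 had 0 reads in every library. Among the 6 tested, 0 were called by edgeR, with log2 fold changes from -0.63 for Sp4 to 0.42 for Sp3, which share the DNA element of Sp1, and a median of -0.09. A higher T>C rate was called for 7 of 7 genes with covered T positions in every library, against a background of 94.5% of intervals.

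None of the genes of Klf cofactors and of pathways upstream passed edgeR's test of reads without the block. Of 14 cofactor genes, 0 were called, with a median log2 fold change of 0.02. The lowest was the acetyltransferase gene Kat2b at -1.01 and the highest the corepressor gene Sin3a at 0.60. Of 9 genes listed for the MEK5-ERK5-MEF2 route, which induces Klf2 and Klf4, 0 were called, with a median of -0.10. The 9 include the deacetylase genes Hdac5 and Hdac7, so this median is not of inducing genes alone. Mapk7, which encodes ERK5, was highest at 0.72 and Mef2c lowest at -0.75 (edgeR adjusted p = 0.742). Unadjusted p below 0.05 was reached by 0 of the cofactor genes and 1 of the MEK5-ERK5-MEF2 genes. With the replicate number as a block, 1 cofactor gene, Kat2b, and 1 gene of this route, Mef2c, were called lower in edgeR, with adjusted p of 0.00407 and 0.00709. Over all genes the block called 11.7%, which is near these shares of 1 in 14 and 1 in 9.

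Of 9 tested genes for the glucocorticoid receptor and its targets, the hormone route to Klf9, Klf13 and Klf15, 0 were called and 1 had an unadjusted p below 0.05. Their median log2 fold change was -0.06, from -0.60 for the clock gene Per1 to 1.17 for the kinase gene Sgk1 (edgeR adjusted p = 0.731). Sgk1 was called higher with the replicate block, at 0.89 with an adjusted p of 0.00186. Of 8 genes for proteins that bind AU-rich elements, 0 were called, with a median of -0.18, from -0.34 for Khsrp to 0.69 for Elavl1, which stabilises its targets. Of these, 0 had an unadjusted p below 0.05, and Elavl1 was called higher with the block, with an adjusted p of 0.0228. The share of all genes called with the block was 11.7%.

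Genes of the early TGF-β response, to which Klf10 belongs, had mostly higher values in the labeled libraries, but 0 of 9 were called by edgeR. Their median log2 fold change was 0.76, with 8 values above 0 and 1 below, against 0.02 over all genes. The highest was Smad6, an inhibitory Smad, at 1.10 (SE 0.40, edgeR adjusted p = 0.768), and the lowest the transcription factor gene Bhlhe40 at -0.55 (SE 0.35). In 4 of the 9, every labeled library was above both unlabeled ones, as in 8.2% of all genes, and 3 of the 9, Smad6, Ccn2 and Pmepa1, had an unadjusted p below 0.05, against 5.97% of all genes. Ccn2, a matricellular protein gene, was at 1.06 and Pmepa1, a feedback inhibitor gene of the pathway, at 1.01. The levels of the 9 genes summed to 8181, 6352 and 7468 CPM with S4U against 4472 and 3701 without. Most of each sum came from Ccn2, at 3061, 2599 and 3306 against 1676 and 1371, and Pmepa1, at 3086, 2625 and 2788 against 1590 and 1387. With the replicate block, Smad6, Smad7, Ccn2 and Pmepa1 were called higher and Bhlhe40 lower in edgeR, with adjusted p from 2.26e-12 for Smad6 to 0.0387 for Bhlhe40. The block called 11.7% of all genes. Klf10 itself, at 39.3, 20.1 and 21.7 against 29.3 and 21.1 CPM, had overlapping groups.

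**Figure D5:**
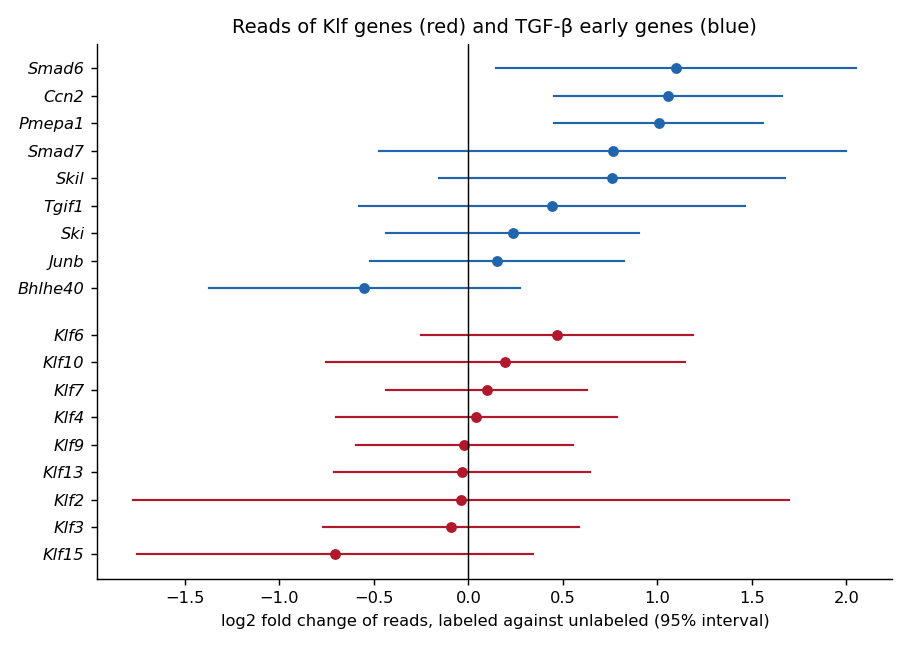
Log2 fold change of read counts, labeled against unlabeled, with the 95% confidence interval of edgeR's quasi-likelihood fit for the 9 Klf genes tested (red) and 9 genes of the early TGF-β response (blue). Each Klf interval includes 0, and those of Smad6, Ccn2 and Pmepa1 lie above 0 before adjustment for the number of genes.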

How the data were processed

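SLAMseq libraries of CF were compared, 3 after 12 h with 0.1 mM S4U and 2 without. The authors made 3′ end libraries (QuantSeq FWD with unique molecular identifiers), extracted and collapsed the identifiers with UMI-tools, and mapped the reads to mm39 and counted them on 3′ UTR intervals with SLAM-DUNK 0.4.3. Per library and interval, the authors deposited unnormalized counts of reads, converted reads, conversions and covered T positions, and the conversion rate as a fraction. The deposited CPM divides by 7.58 to 28.9 times the reads counted on 1 interval per gene, so levels were rescaled to those reads.

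Repeated rows were used once, and tied intervals of a gene were resolved by the lowest start. The T content of 40380 of 40380 intervals matched GRCm39. For T>C rates, a two-sided beta-binomial likelihood-ratio test was run where each library had 1 or more covered T. For reads, edgeR 4.0.16 in R 4.3.3 was used (quasi-likelihood, TMM, filterByExpr, 1 interval per gene). Benjamini-Hochberg adjustment ran over all intervals or genes tested, with a threshold of 0.05. The SE of a log2 fold change was taken from its quasi-likelihood F statistic. Alternatives were limma 3.58.1 on the log odds (pseudocount 0.5), at least 1000 covered T positions, DESeq2 1.42.0, other filters and scaling, summed intervals, the replicate number as a block, and leaving out each library.

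Intervals and limits for a count of 0 (3 counts) cover counting error only. All 10 members were named, with the lowest and highest log2 fold change of each list of related genes and any gene past the threshold. In these lists, with the block, Kat2b, Mef2c, Sgk1, Elavl1, Smad6, Smad7, Ccn2, Pmepa1 and Bhlhe40 passed it. Col1a1, Pecam1, Cdh5, Vwf, Myh11, Msln, Notch3, Lyz2, Cd68, Pdgfra, Klf16, Ccn2, Pmepa1 and Smad7 were chosen after their values were seen. Members and lists were chosen with earlier results of these data known. Scripts ran in Python 3.11.15 with pandas 2.3.3, scipy 1.17.1, numba 0.67.0, numpy 2.4.6 and, for the plots, matplotlib 3.10.9.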

Additional observations from a re-analysis of the deposited data

How the results depend on the processing

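The T>C rates of the members kept their values within 1 SD in 60 of 60 recomputed values. For rates as for levels, a mean without 1 of the 3 labeled libraries cannot move by 1 SD. Rates summed over intervals that repeat the same counts could not move either, so this count is no measure of stability. With limma, 9 members were called, as by the beta-binomial test. When 1000 or more covered T positions were required of each library, 4 members were called, because only Klf3, Klf6, Klf7 and Klf9 have that coverage. In the test of reads, 0 members were called under any alternative, 99 values in all. The count of all genes with changed reads was 0 with edgeR, 18 with DESeq2 and 1145 with the replicate block, which called 0 members. The block leaves 1 residual degree of freedom. Deviations from the group means correlated across genes between same-numbered libraries at 0.784 for number 1 and 0.638 for number 2, and labeled replicate 3 correlated with unlabeled replicate 2 at 0.482. With 2 controls these values mirror each other, and the labels do not say that numbers mark a shared preparation. Mean levels moved by more than 1 SD in 14 of 50 recomputed values. Of these, 10 came from the change of CPM denominator and 4 from adding up overlapping intervals that count the same reads, with a few reads of separate intervals added for Klf15. Without each library in turn, the log2 fold change of reads ran from -0.69 to 1.00 for Klf2, from -1.16 to 0.03 for Klf15, from -0.26 to 0.43 for Klf4 and from -0.20 to 0.41 for Klf10. Depth limits Klf5 most, with at most 10 reads in any library on an interval that lacks the distal end of its UTR.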
